A study of Mus musculus with 7 samples.

Results

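Collagen genes were examined in cells sorted from irradiated B16 tumours, a mouse melanoma line, to compare mice given the vector AAV-iIL12 with mice given the control vector AAV-iLuc. The members were all protein-coding genes of the files whose mouse symbol is Col, a number, a and a number, which gave 44 genes of 56953. AAV is adeno-associated virus, used to deliver a gene, and AAV-iIL12 carries the name of the cytokine interleukin 12, which makes T and NK cells secrete interferon gamma. The 3 AAV-iIL12 libraries and the 4 AAV-iLuc libraries all came from tumours given radiotherapy at 8 Gy and taken on day 5 after treatment, and the design text counts the libraries as mice, which p-values here take as separate animals. The titles of the AAV-iIL12 libraries carry WT, those of the AAV-iLuc libraries name no genotype, and neither a strain nor an age is stated. Live cells without the leukocyte marker CD45 and the endothelial marker CD31 were sorted, a gate that keeps tumour cells and would also keep fibroblasts.

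Collagens are secreted or membrane proteins whose chains wind in trios into a triple helix, built from glycine at regular steps and from proline and lysine that are hydroxylated in the endoplasmic reticulum. Fibrillar collagens (types I, II, III, V, XI, XXIV and XXVII) form the banded fibres of connective tissue and are made mostly by fibroblasts and chondrocytes. Type IV collagen forms the sheet of basement membranes, FACIT collagens (fibril-associated collagens with interrupted triple helices) sit on fibrils, type VI forms beaded filaments, and types XIII, XVII, XXIII and XXV span the cell membrane.

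The libraries held 16356653 to 19080587 counts each, and values are CPM, the counts of a gene per 1000000 counts of its library after TMM scaling. Melanocyte markers summed to 28083 to 28952 CPM over the AAV-iIL12 libraries and 23043 to 26241 CPM over the AAV-iLuc libraries. Pmel made the largest part of that gap, with a mean of 8147 CPM for AAV-iIL12, against 5469 CPM for AAV-iLuc. In the test described below, 3 of the 8 markers were higher (37.5%, against 47.2% of all tested genes that passed) and 5 did not pass. Of these 5, Tyr had the lower mean in AAV-iIL12, with 1058 CPM, against 1190 CPM for AAV-iLuc. The 8 endothelial markers summed to 22.1 to 34.3 CPM over the AAV-iIL12 libraries and 34.2 to 41.1 CPM over the AAV-iLuc libraries. Nearly all of that was Vwf and Egfl7, while Pecam1, Kdr and Tek were at most 0.364, 0.183 and 0.244 CPM and Cdh5, Emcn and Cldn5 were at 0 in all libraries. The 10 leukocyte markers summed to 5.66 to 9.38 CPM over the AAV-iIL12 libraries and 0.893 to 13.7 CPM over the AAV-iLuc libraries, of which Lyz2 reached 6.50 and Ptprc 2.44 CPM. In bulk RNA, fewer cells of a type and less RNA per cell cannot be told apart. Values are given in the order of replicates 1, 2 and 3 for AAV-iIL12 and 1, 2, 3 and 4 for AAV-iLuc, errors of means are SD and errors of log2 fold changes are SE.

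Most collagen genes that differed between the groups were lower in AAV-iIL12 tumours. Of the 44 members, 30 passed the filter on low counts, and of these 13 were lower, 3 were higher and 14 did not pass (quasi-likelihood test of edgeR over 13990 genes, threshold 0.05 on the Benjamini-Hochberg adjusted p). Over all tested genes 47.2% passed, 23.7% lower and 23.5% higher, so that the share of collagen genes that passed, 53.3%, was near the background, while 43.3% of the 30 were lower. The median log2 fold change was -0.28 over the 30 members and -0.01 over all tested genes. All collagen counts together made up 0.0675%, 0.0635% and 0.0582% of the counts in the AAV-iIL12 libraries and 0.0826%, 0.0859%, 0.1104% and 0.0953% in the AAV-iLuc libraries, so that every AAV-iIL12 library was below every AAV-iLuc library. The groups did not overlap for 16 of the 30 members (53.3%), against 52.5% of all tested genes. With library size as the only scaling 15 members were lower and 3 higher.

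**Figure D1:**
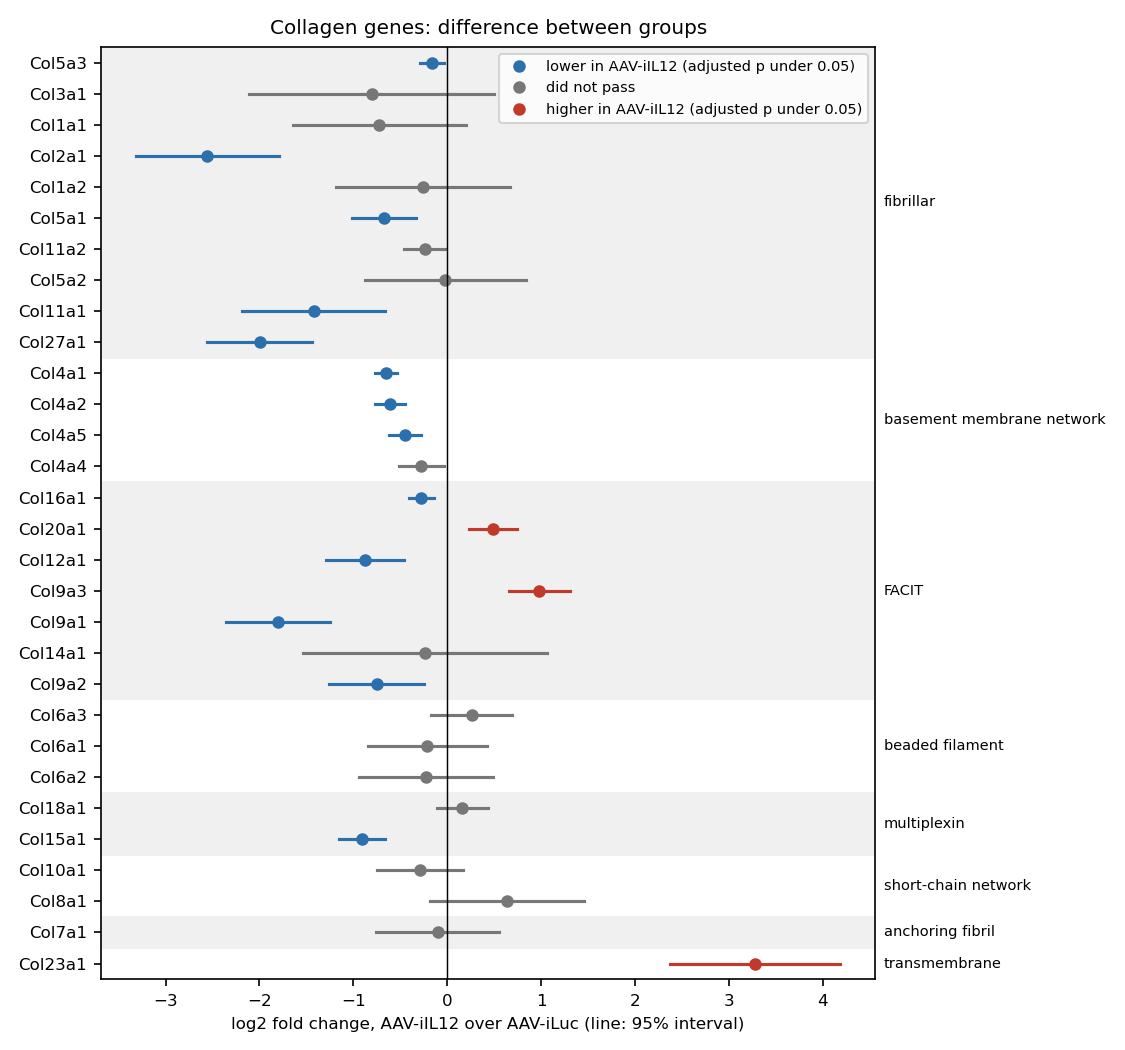
Log2 fold change of AAV-iIL12 over AAV-iLuc (x axis) for the 30 tested collagen genes, grouped by structural class, with points for the edgeR estimate and lines for its 95% interval. Of them, 13 points are blue (lower), 3 are red (higher) and 14 are grey (not passed), and the intervals are widest for the grey Col3a1 and Col14a1 among the genes that did not pass.

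Promoter letters were compared for 4 members chosen after their values were seen: Col3a1 with the widest spread among the fibrillar genes, Col5a3 with the narrowest, Col23a1 with the largest rise and Col27a1 with a large fall. The 250 bases before the start that RefSeq lists are shown, 5′ to 3′ on the gene's strand, from GRCm38.p6, which is not the build of the counts. Their positions are chr1:45311288-45311537, plus strand for Col3a1, chr9:20815068-20815317, minus strand for Col5a3, chr11:51289670-51289919, plus strand for Col23a1 and chr4:63215162-63215411, plus strand for Col27a1, and these windows overlap 0 bases of annotated exons. Capitals mark matches on either strand to CCAAT (known for binding NF-Y), TATAAA (TBP), GGGCGG (Sp1) or TTCNNNGAA (STAT factors).
Col3a1: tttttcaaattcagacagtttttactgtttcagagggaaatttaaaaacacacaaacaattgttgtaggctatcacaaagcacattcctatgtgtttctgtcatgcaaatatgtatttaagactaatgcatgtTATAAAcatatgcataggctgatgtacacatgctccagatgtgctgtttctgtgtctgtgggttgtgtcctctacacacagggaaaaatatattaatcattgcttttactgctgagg
Col5a3: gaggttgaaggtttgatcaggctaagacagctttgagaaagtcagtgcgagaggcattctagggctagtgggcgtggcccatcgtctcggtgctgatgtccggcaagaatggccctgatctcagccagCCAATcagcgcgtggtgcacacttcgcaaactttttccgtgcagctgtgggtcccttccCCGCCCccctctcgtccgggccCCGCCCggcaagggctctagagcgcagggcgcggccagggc
Col23a1: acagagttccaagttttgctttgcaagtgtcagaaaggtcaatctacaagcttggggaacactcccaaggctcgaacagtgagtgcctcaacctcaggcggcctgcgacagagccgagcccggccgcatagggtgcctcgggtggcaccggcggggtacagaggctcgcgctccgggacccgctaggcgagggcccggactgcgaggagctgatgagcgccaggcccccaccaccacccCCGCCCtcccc
Col27a1: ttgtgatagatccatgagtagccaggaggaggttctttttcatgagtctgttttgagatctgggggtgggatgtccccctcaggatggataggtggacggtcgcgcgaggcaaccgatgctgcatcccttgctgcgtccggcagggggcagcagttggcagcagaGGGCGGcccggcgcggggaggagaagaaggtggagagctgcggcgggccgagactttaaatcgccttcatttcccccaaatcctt
The Col3a1 window held 1 TATAAA match, the Col5a3 window 1 CCAAT and 2 GGGCGG matches, and the Col23a1 and Col27a1 windows 1 GGGCGG match each. TTCNNNGAA was found in none of the 4. Of 35 members with a listed promoter, 21 held GGGCGG (60.0%), against 32.7% of all 32851 listed promoters. CCAAT was in 13 of them against 33.8%, TATAAA in 5 against 12.4%, and TTCNNNGAA in 2 against 7.02%. Members were counted by gene, with a match in any listed promoter, and the background by promoter, so these shares differ in unit. A match is a description of letters and not a bound site.

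The collagen genes of highest level per length were Col16a1 and the basement membrane genes Col4a1 and Col4a2. Per kilobase of summed exon length, mean levels in AAV-iIL12 and AAV-iLuc were 19.2 and 23.3 CPM for Col16a1, a FACIT gene, and 14.8 and 23.3 CPM for Col4a1. Col4a2 followed with 9.22 and 14.1 CPM per kilobase, and Col5a3, a chain of type V collagen, with 6.97 and 7.79 CPM. Col1a1, the gene of the main chain of type I collagen, had 4.66 and 7.69 CPM per kilobase. Col1a1 thus stood below Col4a1 and Col4a2 in both groups on this scale.

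Of 4 tested type IV collagen genes, 3 were lower in AAV-iIL12 tumours, and these varied little within a group. The share lower was 75.0%, against 23.7% of all tested genes. Col4a1 (ENSMUSG00000031502, chromosome 8, 11248423 to 11362826, GRCm39) encodes, with Col4a2, the chains found in nearly all basement membranes. It had 111, 110.0 and 111 CPM in the AAV-iIL12 libraries, against 162, 175, 183 and 176 CPM in the AAV-iLuc libraries, and the groups did not overlap (log2 fold change -0.65 ± 0.05, adjusted p = 1.14e-05). Col4a2 (ENSMUSG00000031503, chromosome 8, 11362805 to 11499287, GRCm39) had 56.2, 62.3 and 64.7 CPM in the AAV-iIL12 libraries, against 90.5, 92.7, 103 and 87.3 CPM in the AAV-iLuc libraries (log2 fold change -0.61 ± 0.07, adjusted p = 8.62e-05), again with no overlap. The 2 genes lie head to head and overlap by 22 bases on opposite strands, which the stranded counting tells apart. Their ratio per kilobase stayed within 1.53 to 1.75 in AAV-iIL12 and 1.57 to 1.79 in AAV-iLuc, so the balance of the 2 chains overlapped between the groups. The 9 pericyte and smooth muscle markers, of cells that also make type IV collagen, summed to 15.8 to 18.8 CPM over the AAV-iIL12 libraries and 21.5 to 24.2 CPM over the AAV-iLuc libraries. Cspg4 made the largest part of that gap, with a mean of 4.04 CPM for AAV-iIL12, against 8.70 CPM for AAV-iLuc. Whether this sum follows the number of pericytes was not tested. Of the 5 tested, Cspg4 (by 1.10 on the log2 scale) and Notch3 (by 0.45) fell, and Tagln rose by 1.15. Myh11 and Des did not pass, with log2 fold changes of 0.81 and -0.45. Acta2, which was not tested, went against the sum, with a mean of 0.822 CPM for AAV-iIL12, against 0.396 CPM for AAV-iLuc. Its groups overlapped. Rgs5, Kcnj8 and Abcc9 were at most 0.0520, 0.122 and 0.312 CPM. The part of pericytes and smooth muscle cells in the type IV falls was not tested.

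The other type IV chains form networks of specialised basement membranes, such as that of the kidney glomerulus. Col4a5 had 34.7, 34.6 and 37.9 CPM in the AAV-iIL12 libraries, against 51.4, 51.5, 49.1 and 43.0 CPM in the AAV-iLuc libraries, without overlap (log2 fold change -0.45 ± 0.08, adjusted p = 9.97e-04). Col4a4 had 16.1, 21.1 and 18.0 CPM in the AAV-iIL12 libraries, against 21.1, 20.8, 25.2 and 22.1 CPM in the AAV-iLuc libraries (log2 fold change -0.27 ± 0.11, adjusted p = 0.0591). The Col4a4 groups overlapped, since AAV-iIL12 replicate 2 was above AAV-iLuc replicate 2. Its 95% interval ran from -0.51 to -0.03, and it passed without AAV-iIL12 replicate 2 (adjusted p = 0.0202) and under scaling by library size or by the upper quartile (adjusted p = 0.0186 and 0.0222). Col4a3, 71 bases from Col4a4 and head to head with it, and Col4a6, 1308 bases from Col4a5 and likewise head to head, had too few counts for a test, with 18 counts in AAV-iIL12 and 13 in AAV-iLuc for Col4a3, and 1 and 3 for Col4a6. Col15a1 and Col18a1, the multiplexin genes of basement membrane zones, differed in outcome. Col15a1 had 14.0, 11.2 and 11.3 CPM in the AAV-iIL12 libraries, against 22.3, 24.6, 24.2 and 20.2 CPM in the AAV-iLuc libraries, with no overlap (log2 fold change -0.91 ± 0.11, adjusted p = 1.02e-04), whereas Col18a1, the source of endostatin, had 23.5, 17.2 and 20.3 CPM in the AAV-iIL12 libraries, against 16.2, 16.8, 19.5 and 20.1 CPM in the AAV-iLuc libraries and did not pass (adjusted p = 0.298, 95% interval -0.11 to 0.43).

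**Figure D2:**
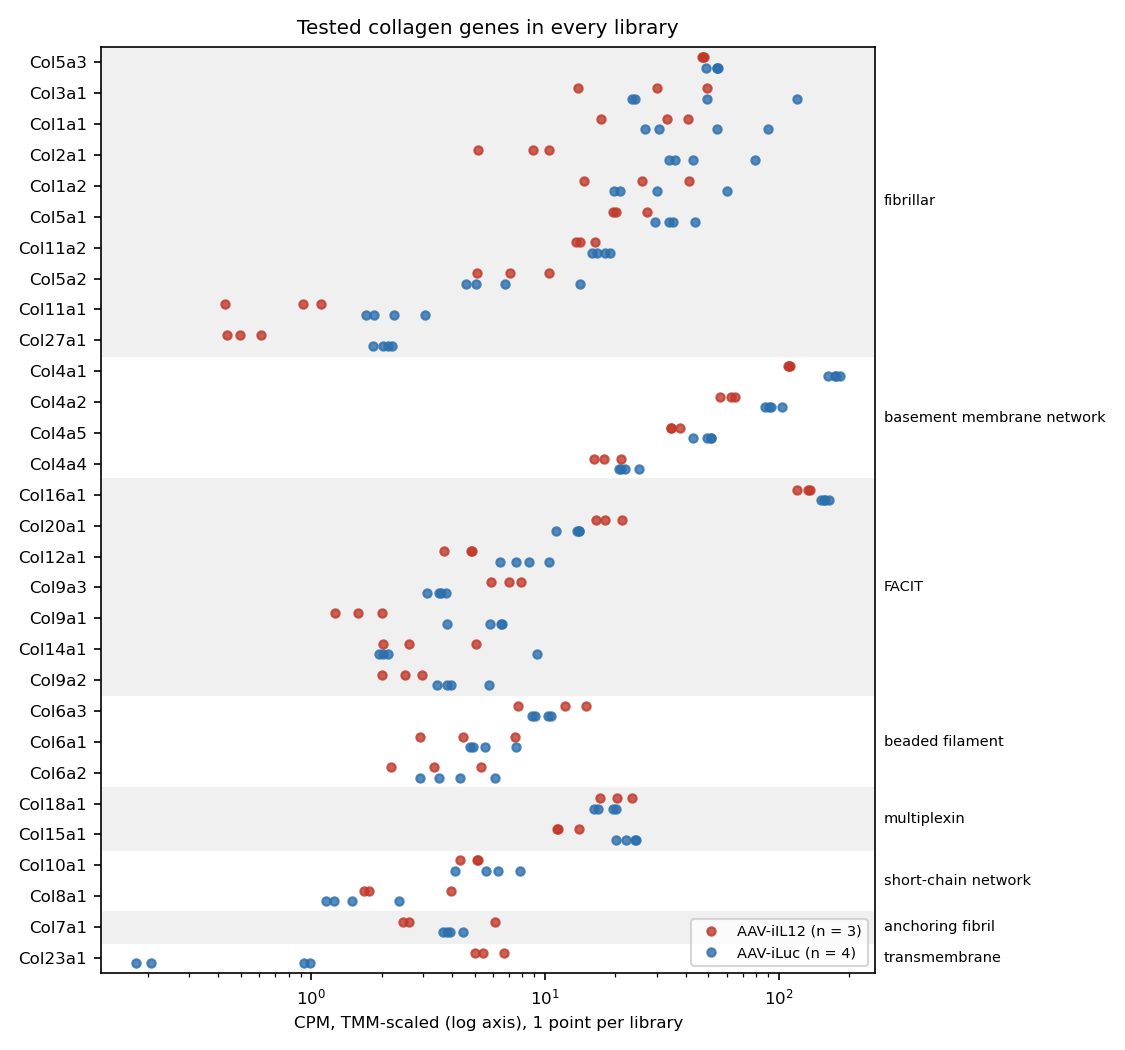
CPM on a log axis for the 30 tested collagen genes, with 1 red point per AAV-iIL12 library and, just below, 1 blue point per AAV-iLuc library. Col4a1, Col4a2, Col4a5 and Col15a1 show tight groups that do not overlap, while Col1a1, Col1a2 and Col3a1 are spread widely in both groups.

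Among fibrillar collagen genes, 5 of 10 tested were lower and 5 did not pass, and Col2a1 had the largest fall. The share that passed, 50.0%, was near the 47.2% of all tested genes, of which 23.7% were lower. Col2a1 (ENSMUSG00000022483, chromosome 15, 97873483 to 97902576, GRCm39) encodes the type II collagen of cartilage. It had 5.18, 10.4 and 8.85 CPM in the AAV-iIL12 libraries, against 34.0, 42.9, 35.9 and 79.3 CPM in the AAV-iLuc libraries (log2 fold change -2.55 ± 0.34, adjusted p = 1.96e-04). The highest AAV-iIL12 library was below the lowest AAV-iLuc library, and AAV-iLuc replicate 4 was well above the others. Leaving that library out, the log2 fold change of Col2a1 was -2.20 (adjusted p = 6.31e-05). Col27a1 (ENSMUSG00000045672, chromosome 4, 63132241 to 63253228, GRCm39), another chain of cartilage fibrils, had 0.609, 0.434 and 0.494 CPM in the AAV-iIL12 libraries, against 2.03, 2.14, 1.85 and 2.22 CPM in the AAV-iLuc libraries (log2 fold change -2.00 ± 0.25, adjusted p = 1.41e-04). These levels rest on 27 counts in AAV-iIL12 and 152 in AAV-iLuc, and the groups did not overlap. Col11a1, which helps set the width of cartilage fibrils, had 0.426, 0.923 and 1.10 CPM in the AAV-iIL12 libraries, against 1.72, 3.07, 2.26 and 1.86 CPM in the AAV-iLuc libraries, from 44 and 163 counts (log2 fold change -1.42 ± 0.34, adjusted p = 0.00656). Its partner Col11a2 had 16.4, 13.6 and 14.2 CPM in the AAV-iIL12 libraries, against 15.9, 16.6, 19.0 and 18.0 CPM in the AAV-iLuc libraries and did not pass (adjusted p = 0.0691, 95% interval -0.46 to -0.02), with overlapping groups. The call of Col11a2 appeared without AAV-iIL12 replicate 1 (adjusted p = 0.0308) and under scaling by library size or by the upper quartile (adjusted p = 0.0196 and 0.0224).

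Of the chains of type V collagen, which nucleates fibrils of type I, 2 were lower and 1 did not pass. Col5a1 had 19.6, 27.4 and 20.1 CPM in the AAV-iIL12 libraries, against 29.6, 34.0, 44.0 and 35.3 CPM in the AAV-iLuc libraries, without overlap (log2 fold change -0.67 ± 0.15, adjusted p = 0.00458). Col5a3 had 47.5, 46.9 and 47.9 CPM in the AAV-iIL12 libraries, against 55.0, 54.2, 48.7 and 54.4 CPM in the AAV-iLuc libraries, which is the smallest of the falls (log2 fold change -0.16 ± 0.06, adjusted p = 0.0444). Its groups were separated by less than 1 CPM, and the call was lost without any library but AAV-iLuc replicate 3 (adjusted p up to 0.126), with the replicate block (adjusted p = 0.139), with median-of-ratios size factors (0.0532), without the low-count filter (0.126) and in DESeq2 (0.0914). Col5a2, the third chain, had 10.4, 7.06 and 5.11 CPM in the AAV-iIL12 libraries, against 4.58, 5.04, 14.2 and 6.75 CPM in the AAV-iLuc libraries (log2 fold change -0.02, adjusted p = 0.974, 95% interval -0.87 to 0.84). AAV-iLuc replicate 3 was the highest library for Col5a2 and AAV-iIL12 replicate 1 the next.

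Types I and III, the bulk collagens of fibroblasts, varied more between libraries of 1 group than between the groups. Col1a1 (ENSMUSG00000001506, chromosome 11, 94827050 to 94843868, GRCm39) had 41.1, 33.2 and 17.4 CPM in the AAV-iIL12 libraries, against 30.9, 26.8, 90.2 and 54.2 CPM in the AAV-iLuc libraries. Col1a2 (ENSMUSG00000029661, chromosome 6, 4504814 to 4541544, GRCm39), the other chain of type I collagen, had 41.4, 25.9 and 14.7 CPM in the AAV-iIL12 libraries, against 19.8, 20.9, 59.9 and 30.2 CPM in the AAV-iLuc libraries. Col3a1 (ENSMUSG00000026043, chromosome 1, 45350698 to 45388866, GRCm39), of the type III collagen that accompanies type I in soft tissue, had 49.4, 30.0 and 13.8 CPM in the AAV-iIL12 libraries, against 23.5, 24.3, 120.2 and 49.2 CPM in the AAV-iLuc libraries. In all 3 genes AAV-iLuc replicate 3 was the highest of its group, AAV-iIL12 replicate 1 the highest of its group, AAV-iIL12 replicate 3 the lowest library of all, and the groups overlapped. None of them passed, with log2 fold changes of -0.72, -0.26 and -0.81 and adjusted p of 0.178, 0.641 and 0.284 (edgeR). The 95% intervals were -1.65 to 0.20, -1.18 to 0.67 and -2.11 to 0.50, so a fall of the size seen for Col4a1 is within each of them. Leaving out AAV-iLuc replicate 3, their log2 fold changes were -0.29, 0.21 and -0.063, and leaving out AAV-iIL12 replicate 1 they were -0.99, -0.67 and -1.29, again with no call. Without the low-count filter Col1a1 and Col3a1 passed (adjusted p = 0.0108 and 0.0444), as in no other alternative run.

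Type I collagen is a trimer with more alpha 1 than alpha 2 chains. The ratio of Col1a1 to Col1a2 per kilobase was 1.88, 2.43 and 2.24 in AAV-iIL12 and 2.95, 2.42, 2.85 and 3.40 in AAV-iLuc. The ranges meet at AAV-iIL12 replicate 2 and AAV-iLuc replicate 2, and the absolute ratio depends on the summed exon lengths, which are the same in every library. The ratio of Col1a1 to Col4a1 per kilobase had a wider range, with 0.178 to 0.421 in AAV-iIL12 and 0.174 to 0.561 in AAV-iLuc.

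The members differed widely in their spread within a group. For Col3a1 the highest library was 3.56 times the lowest in AAV-iIL12 and 5.11 times in AAV-iLuc, for Col1a1 2.36 and 3.37 times, and for Col14a1 2.49 and 4.71 times. For Col4a1 these ratios were 1.01 and 1.13, for Col16a1 1.13 and 1.09, and for Col5a3 1.02 and 1.13. The ratio reached 2 in either group for 12 members, of which 3 passed the test between groups, and stayed below 2 in both groups for 18 members, of which 13 passed. The test weighs a difference against the spread within groups, so members of wide spread pass less often by construction. Over all tested genes the median ratio was 1.17 in AAV-iIL12 and 1.21 in AAV-iLuc, and 7.85% and 10.7% of genes reached 2. Among the 30 collagen genes 11 reached 2 in AAV-iIL12 and 9 in AAV-iLuc. Of the 12 wide-ranging members, 8 were highest in AAV-iLuc replicate 3 within AAV-iLuc, and 10 were highest in AAV-iIL12 replicate 1 within AAV-iIL12. Within AAV-iLuc the ratio was only 1.57 for Col6a1 and 1.22 for Col7a1. Some members of narrower spread peaked there too, such as Col4a1 and Col5a1 in AAV-iLuc replicate 3 and Col15a1 and Col18a1 in AAV-iIL12 replicate 1. Others, such as Col16a1, peaked in neither. A member that did not pass and whose highest library of all 7 was under 1.5 times its lowest was called steady. That held for Col11a2 and Col18a1 only, 2 of the 30 members, against 4357 of the 13990 tested genes. The label is weak for Col11a2, whose log2 fold change interval, -0.46 to -0.02, held negative values only. Col11a2 also passed as lower without AAV-iIL12 replicate 1 and under scaling by library size or by the upper quartile. Col5a3, with a ratio of 1.17 over all 7 libraries, was left out because it passed (edgeR adjusted p = 0.0444).

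**Figure D3:**
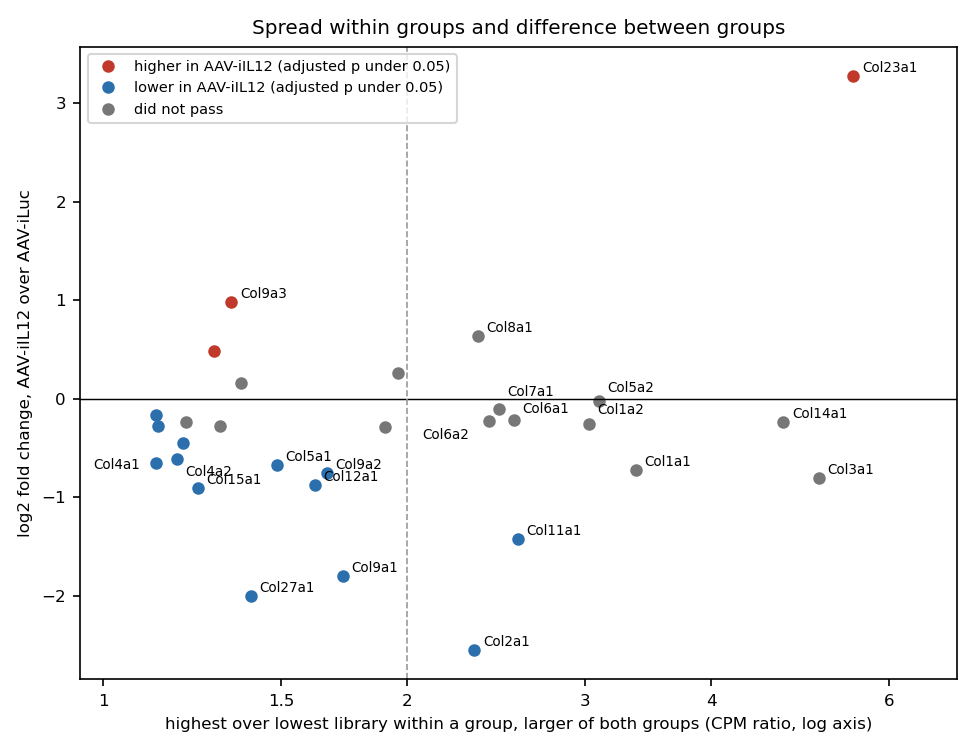
Spread within groups (x axis, highest over lowest library, larger of both groups, log axis) against the log2 fold change of AAV-iIL12 over AAV-iLuc (y axis) for the 30 tested collagen genes. The dashed line marks a ratio of 2. To its right lie 12 genes, with Col3a1, Col14a1, Col1a1, Col5a2 and Col1a2 in grey (not passed), and Col2a1, Col11a1 and Col23a1 in colour. A wide spread by itself makes passing the test less likely.

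Apart from Fbln1, fibroblast markers were low in all libraries. The list of 12 summed to 152, 169 and 161 CPM in the AAV-iIL12 libraries and 205, 220.2, 276 and 243 CPM in the AAV-iLuc libraries. Most of that sum was Fbln1, an extracellular matrix gene that alone gave 114, 145 and 142 CPM in the AAV-iIL12 libraries and 188, 202, 233 and 221 CPM in the AAV-iLuc libraries. The other 11 markers, a split chosen after the values were seen, summed to 38.3, 23.8 and 19.1 CPM in the AAV-iIL12 libraries and 17.2, 18.3, 43.2 and 21.0 CPM in the AAV-iLuc libraries. AAV-iIL12 replicate 1 and AAV-iLuc replicate 3 were the highest of their groups in this sum, as for Col1a1, Col1a2, Col3a1, Col5a2 and Col14a1. Of the 11 taken singly, 8 were highest of AAV-iIL12 in replicate 1, 8 were highest of AAV-iLuc in replicate 3, and 5 were both. Of the 11 tested, which include Fbln1 but not Fap, 1 was higher (Sfrp1, by 2.77), 1 was lower (Fbln1, by 0.66) and 9 did not pass. The share that passed was 18.2%, against 47.2% of all tested genes. Of these markers 4 passed without AAV-iLuc replicate 1, 5 without the low-count filter and 1 at a minimum absolute log2 fold change of 1. None of the 12 was at 0 in every library, and the fibroblast receptor Pdgfra was at most 2.14 CPM. The part of fibroblast content in the spread of these collagens was not tested.

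**Figure D4:**
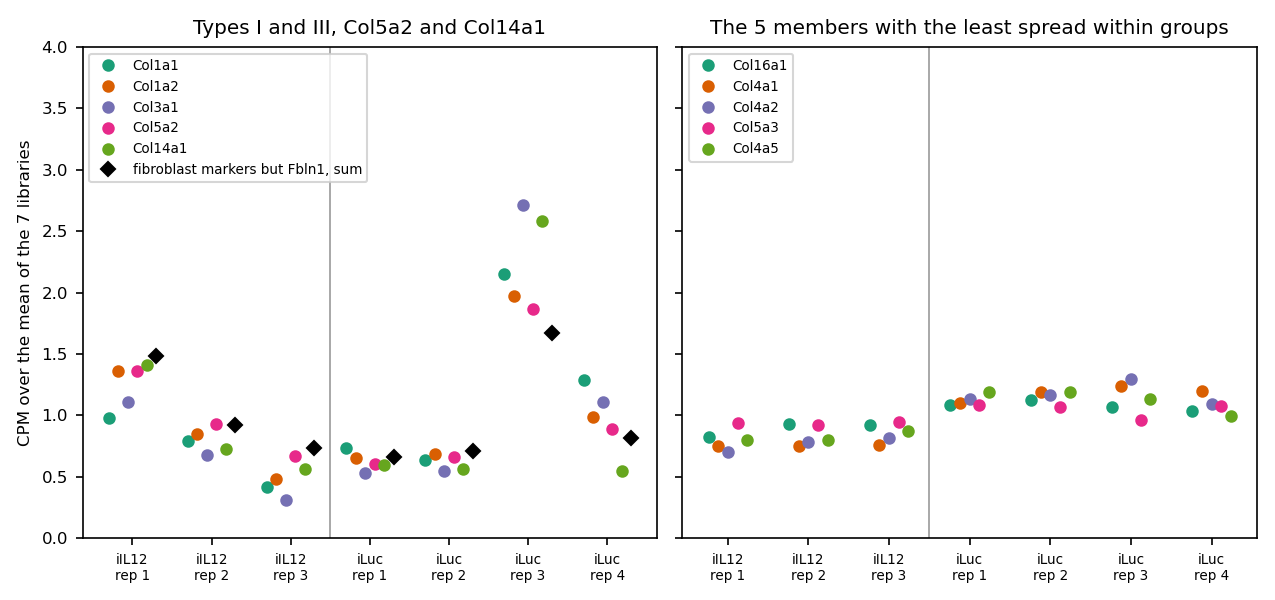
CPM of each library divided by the mean of the 7 libraries (y axis), with AAV-iIL12 libraries left of the line and AAV-iLuc libraries right of it. On the left panel Col1a1, Col1a2, Col3a1, Col5a2, Col14a1 and the sum of 11 fibroblast markers (black) stand highest in AAV-iLuc replicate 3 and, within AAV-iIL12, in replicate 1. On the right panel Col16a1, Col4a1, Col4a2, Col5a3 and Col4a5 vary little within a group.

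FACIT and other fibril-bound collagens moved in both directions. Of 7 tested FACIT genes 4 were lower, 2 were higher and 1 did not pass. Thus 85.7% passed, against 47.2% of all tested genes, and 57.1% were lower, against 23.7%. Col16a1 (ENSMUSG00000040690, chromosome 4, 129941633 to 129993076, GRCm39) had 119.7, 136 and 134 CPM in the AAV-iIL12 libraries, against 158, 164, 156 and 151 CPM in the AAV-iLuc libraries, a small fall without overlap (log2 fold change -0.28 ± 0.06, adjusted p = 0.00339). Col12a1, found on type I fibrils in dense connective tissue, had 4.87, 4.83 and 3.68 CPM in the AAV-iIL12 libraries, against 6.40, 7.51, 10.4 and 8.56 CPM in the AAV-iLuc libraries (log2 fold change -0.88 ± 0.19, adjusted p = 0.00325). Col14a1, a partner of the same fibrils, had 5.06, 2.61 and 2.03 CPM in the AAV-iIL12 libraries, against 2.13, 2.03, 9.23 and 1.96 CPM in the AAV-iLuc libraries, with AAV-iLuc replicate 3 far above its group. It did not pass (adjusted p = 0.765, 95% interval -1.53 to 1.06), and without AAV-iLuc replicate 3 its log2 fold change was 0.65 in place of -0.24. Col20a1 (ENSMUSG00000016356, chromosome 2, 180628328 to 180660156, GRCm39), a little-studied FACIT gene, had 21.3, 16.5 and 18.1 CPM in the AAV-iIL12 libraries, against 14.0, 13.8, 11.1 and 14.0 CPM in the AAV-iLuc libraries and was higher without overlap (log2 fold change 0.49 ± 0.12, adjusted p = 0.00591).

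The chains of type IX collagen, which assemble into 1 heterotrimer on cartilage fibrils, went in opposite directions. Col9a1 had 1.58, 2.01 and 1.26 CPM in the AAV-iIL12 libraries, against 3.80, 5.81, 6.55 and 6.49 CPM in the AAV-iLuc libraries (log2 fold change -1.80 ± 0.25, adjusted p = 2.52e-04). Col9a2 had 2.01, 2.99 and 2.53 CPM in the AAV-iIL12 libraries, against 3.95, 5.76, 3.81 and 3.45 CPM in the AAV-iLuc libraries (log2 fold change -0.75 ± 0.23, adjusted p = 0.0200). Col9a3 had 7.86, 5.87 and 7.03 CPM in the AAV-iIL12 libraries, against 3.12, 3.78, 3.57 and 3.50 CPM in the AAV-iLuc libraries (log2 fold change 0.98 ± 0.15, adjusted p = 4.05e-04). The groups did not overlap for any of the 3 chains, so Col9a1 and Col9a2 were lower and Col9a3 was higher. The Col9a2 call was lost without AAV-iIL12 replicate 1 or 3 (adjusted p = 0.0733 and 0.0596). Whether the change of Col9a3 differs from those of Col9a1 and Col9a2 was not tested beyond their opposite calls.

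Col23a1 had the largest rise of the members. It encodes a collagen that spans the cell membrane. Col23a1 (ENSMUSG00000063564, chromosome 11, 51180747 to 51474745, GRCm39) had 6.70, 5.00 and 5.44 CPM in the AAV-iIL12 libraries, against 0.988, 0.932, 0.179 and 0.206 CPM in the AAV-iLuc libraries, from 301 counts in AAV-iIL12 and 43 in AAV-iLuc (log2 fold change 3.28 ± 0.41, adjusted p = 1.27e-04). AAV-iLuc replicates 1 and 2 were about 1 CPM and replicates 3 and 4 lower, while every AAV-iIL12 library was well above them. The other membrane-spanning genes, Col13a1, Col17a1 and Col25a1, had too few counts for a test, with 0, 8 and 6 counts in AAV-iIL12 and 0, 5 and 2 in AAV-iLuc.

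No beaded-filament gene of the 3 tested passed, against 47.2% of all tested genes. Col6a3, the long chain of type VI collagen, had 15.0, 12.2 and 7.69 CPM in the AAV-iIL12 libraries, against 10.6, 10.3, 8.82 and 9.07 CPM in the AAV-iLuc libraries (adjusted p = 0.294), with AAV-iIL12 replicate 1 highest and replicate 3 lowest, and it passed as higher without AAV-iIL12 replicate 3 (log2 fold change 0.49, adjusted p = 0.0172). Col6a1 and Col6a2, neighbours on chromosome 10, stood at 4.93 ± 2.30 CPM with AAV-iIL12 and 5.69 ± 1.25 CPM with AAV-iLuc, and 3.62 ± 1.57 CPM with AAV-iIL12 and 4.22 ± 1.40 CPM with AAV-iLuc (n = 3 and 4). Their adjusted p was 0.575 and 0.600, in the edgeR test. Col10a1 and Col8a1, of short-chain networks, had log2 fold changes of -0.29 and 0.64 (adjusted p = 0.272 and 0.181). Col7a1, of the anchoring fibrils of skin, had a log2 fold change of -0.10 (adjusted p = 0.801), and passed as lower without AAV-iIL12 replicate 1 (-0.63, adjusted p = 0.0207). The 6 markers of keratinocytes, skin cells that make types VII and XVII, were near 0 apart from Cdh1: Krt5 and Krt1 were at 0 in all libraries, and Krt14, Krt10 and Epcam were at most 0.0543, 0.109 and 0.824 CPM. Cdh1 had 9.29 to 15.2 CPM in AAV-iIL12 and 1.70 to 2.63 CPM in AAV-iLuc.

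Of the 14 members outside the test, Col6a4, Col6a5, Col13a1 and Col22a1 had 0 counts in all libraries, which allows up to 0.0237 CPM, taking 3 counts over the 7 libraries. The other 10, which include Col6a6, Col8a2, Col19a1 and Col26a1, had between 1 and 52 counts in all. Col28a1 had the most, with 29, 8 and 8 counts in the AAV-iIL12 libraries and 1, 1, 5 and 0 in the AAV-iLuc libraries. Without the low-count filter it passed as higher (log2 fold change 3.09, adjusted p = 4.13e-04). Col24a1, a fibrillar chain, had 17 counts in AAV-iIL12 and 15 in AAV-iLuc.

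Of 16 tested enzymes and chaperones that modify and fold collagen chains, 9 were lower, 3 were higher and 4 did not pass, so that 75.0% passed, against 47.2% of all tested genes, and 56.2% were lower, against 23.7%. P3h2, a prolyl 3-hydroxylase, averaged 9.79 ± 2.57 CPM with AAV-iIL12 and 38.6 ± 2.43 CPM with AAV-iLuc (log2 fold change -1.97 ± 0.15, adjusted p = 7.18e-06). It was the only gene of the list still called at a minimum absolute log2 fold change of 1. Plod3, a lysyl hydroxylase, and Fkbp14, a prolyl isomerase, rose by 0.58 and 0.59. P4hb, the shared subunit of prolyl 4-hydroxylases and the most abundant gene of the list, fell by 0.32. Of the other prolyl 4-hydroxylase genes tested, P4ha1 was called higher (log2 fold change 0.43) and P4ha2 lower (-0.28). Serpinh1, the collagen chaperone HSP47, named after its values were seen, averaged 535 ± 26.3 CPM with AAV-iIL12 and 826 ± 103 CPM with AAV-iLuc (n = 3 and 4) and fell by 0.63 (edgeR adjusted p = 3.49e-04).

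Of 15 tested genes of collagen export, trimming and crosslinking, 4 were higher, 3 were lower and 8 did not pass, so the share that passed, 46.7%, was at the background of 47.2%. Furin, a proprotein convertase, rose by 0.62, Pcolce, which speeds trimming of procollagen, by 0.44, and Bmp1, the protease it helps, by 0.51. Mia3, the export receptor for procollagen, fell by 0.29. Lox, a lysyl oxidase that crosslinks fibrils, had 4.75, 2.61 and 2.09 CPM in AAV-iIL12, against 2.34, 2.63, 15.5 and 4.23 CPM in AAV-iLuc and did not pass (adjusted p = 0.250). Its highest library was AAV-iLuc replicate 3, as for Col1a1 and Col3a1, and it too was named after its values were seen. The other tested lysyl oxidase genes differed in this. Loxl1 was also highest there (5.12 CPM), while Loxl2 was lowest of AAV-iLuc there (98.5 CPM) and was called lower (edgeR adjusted p = 0.0212). Within AAV-iLuc, Loxl3 was highest in replicate 1 (67.0 CPM).

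Of 14 tested genes of collagen breakdown and uptake, 3 were higher, 4 were lower and 7 did not pass. The 50.0% that passed is near the 47.2% of all tested genes. These counts include the metalloproteinase inhibitors Timp1, Timp2 and Timp3, which act against breakdown. Timp3 was among the higher genes (log2 fold change 0.53) and Timp2 among the lower (-0.46), while Timp1 did not pass. Mmp15, a membrane metalloproteinase, fell by 3.45, the cathepsin gene Ctsl rose by 0.76, Prep, a proline-specific peptidase, fell by 0.58, and Ctsb rose by 0.55. Of 7 tested collagen receptors, 2 were higher, 2 were lower and 3 did not pass (57.1% passed, against 47.2% of all genes). Ddr2, a receptor kinase for fibrillar collagen, averaged 482 ± 16.1 CPM with AAV-iIL12 and 199 ± 25.7 CPM with AAV-iLuc (log2 fold change 1.27 ± 0.09, adjusted p = 5.51e-06). Itga1, the integrin chain for type IV and type I collagen, fell by 0.85 and Adgrg1, which binds type III collagen in mouse brain, by 0.56, while Itgb1 stood at 743 ± 20.6 CPM with AAV-iIL12 and 816 ± 58.4 CPM with AAV-iLuc and did not pass.

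Of 18 tested partners of fibrils and basement membranes, 3 were higher, 6 were lower and 9 did not pass, again near the background (50.0% against 47.2%). Hspg2, the basement membrane proteoglycan perlecan, averaged 189 ± 30.9 CPM with AAV-iIL12 and 350.3 ± 11.0 CPM with AAV-iLuc (log2 fold change -0.89 ± 0.10, adjusted p = 6.80e-05). Sparc, a collagen-binding protein and the most abundant of the list, fell by 0.42, and Thbs1, thrombospondin 1, rose by 1.39. Of 23 tested genes that act on collagen transcription, 8 were higher, 4 were lower and 11 did not pass, and 52.2% passed, near the 47.2% of all tested genes. Sox9, which activates Col2a1 in cartilage, averaged 34.9 ± 2.83 CPM with AAV-iIL12 and 10.01 ± 1.64 CPM with AAV-iLuc and rose by 1.81. Sox5, a partner there, fell by 0.96. Sox6, of the same list, stood at 191 ± 6.53 CPM with AAV-iIL12 and 188 ± 12.7 CPM with AAV-iLuc and did not pass. Zfp469, a zinc finger gene, fell by 2.76, and the melanocyte factor Mitf rose by 0.25. Under scaling by library size or by the upper quartile, 9 genes of this list were lower. The median log2 fold change of these 6 lists lay between -0.24 (modification and folding) and 0.15 (receptors).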

How the data were processed

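RNA of sorted tumour cells was sequenced in 7 libraries. The deposited values are raw counts of fragments per gene, made by the authors with featureCounts 1.6.0 over exons of the GENCODE vM32 annotation with reverse-stranded and paired-end settings, per the file headers. FastQC 0.11.8, STAR 2.7.9a, GRCm39, edgeR and limma are named in the submitters' processing notes. No option for fragments that map to several places was set, per the file headers. Symbols came from a table of gene names and gene types from GENCODE vM21, matched by gene identifier for 52029 of 56953 identifiers holding 99.4% of counts.

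Counts were tested with edgeR 4.0.16 in R 4.3.3 (quasi-likelihood F test, TMM, filterByExpr, Benjamini-Hochberg over 13990 genes, threshold 0.05), checked on simulated counts. SE and 95% intervals come from the F statistic and are not adjusted for multiple tests. Levels between genes are given per kilobase of the deposited exon length. Alternatives used DESeq2 1.42.0, limma-voom (limma 3.58.1), other scalings, filters and thresholds, the replicate number as a block, and each library left out. Values in every library are given for members that passed or averaged at least 10 CPM, and for Col5a2 and Col14a1, chosen after their values were seen. From each pathway list the 3 genes of smallest p and the most abundant were named. Other genes named from these lists were chosen after their values were seen. The members and lists were chosen with earlier results of these data known. Within each group, no 2 libraries agreed within the noise of counting (chi-square over degrees of freedom at least 3.44). The labels give no sequencing batch. Floors cover counting error only.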

Additional observations from a re-analysis of the deposited data

Results flagged for a closer look

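In 5 of 41 values checked in the AAV-iLuc group, 1 library stood apart from the other 3 by a gap, relative to the group's range, above Dixon's 95% critical value, which chance gives in about 1 in 20 groups. Col14a1 was 9.23 CPM in AAV-iLuc replicate 3, against 2.13 CPM in the next library. The sum of 11 fibroblast markers without Fbln1 was 43.2 CPM in the same library and 21.0 CPM in the next, but this sum was chosen after the values were seen, so the chance rate does not apply to it. Col20a1 and Col5a3 were lowest there, with 11.1 CPM for Col20a1 and 48.7 CPM for Col5a3, against 13.8 and 54.2 CPM in the library nearest to it. The summed leukocyte markers reached 13.7 CPM in AAV-iLuc replicate 1, with 2.22 CPM in the library nearest to it.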

How the results depend on the processing

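The collagen genes called numbered 16, with 13 lower and 3 higher, and 14 to 18 under every alternative but a minimum absolute log2 fold change of 1, where 5 were called, 4 lower and 1 higher. That threshold left 1471 of 6608 calls over all genes, 817 higher and 654 lower. Leaving out each library gave 15 to 16 collagen genes, 11 to 13 lower and 3 to 4 higher, and 5672 to 6295 calls over all genes (2898 to 3152 higher, 2774 to 3157 lower). With library size only 36% of all calls were higher and with upper quartile scaling 38.5%, in place of 49.8%. With the replicate block 15 collagen genes were called, and the number of all genes called was 5660. AAV-iLuc replicate 4 shares its number with no library, so it adds nothing to that difference. Same-numbered libraries deviated together with correlations of 0.09, 0.03 and -0.05, not every library was closest to its own number, and the numbers were not taken as pairs. The block ended the call of Col5a3 and of no other member. In limma-voom the log2 fold changes of Col14a1 and Col5a2, not called, were 0.027 and 0.081 in place of -0.24 and -0.02, and with the replicate block that of Col5a2 was 0.035. Leaving out each library gave -0.63 to 0.13 for Col7a1, -0.62 to 0.065 for Col6a1, -0.59 to 0.044 for Col6a2, -0.69 to 0.65 for Col14a1, -0.67 to 0.21 for Col1a2 and -0.31 to 0.46 for Col5a2, all crossing 0 without a call but Col7a1 at its lowest. The cause of these changes was not tested. At this depth 14 of the 44 members had too few counts for a test.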
